A study of Homo sapiens with 10 samples.

Results

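HOX genes encode homeodomain transcription factors and lie in 4 clusters, HOXA to HOXD. All 39 genes of the deposited table whose symbol is HOX, a cluster letter and a paralogue number were taken, out of 64940 genes, and their levels were compared between control cells and cells overexpressing DAZL (oeDAZL). HOXA held 11 of them, HOXB 10, HOXC 9 and HOXD 9. DAZL is an RNA-binding protein of germ cells. The cells came from H9, a human embryonic stem cell line, and each group had 2 RNA-sequencing libraries. According to the study's methods, overexpression cells were differentiated towards primordial germ cell-like cells (hPGCLCs) with BMP4 and BMP8a and transduced with lentivirus. A control virus carrying GFP alone and collection by cell sorting are stated there for the miRNA libraries and not for the RNA-sequencing libraries. The sample labels call the control cells wt and spontaneously differentiated (SD) and the oeDAZL cells hPGCLCs, whereas the series' design text calls both groups PGCLCs. Nothing in the labels says that the replicates came from separate cultures, so p-values measure only the spread between these libraries, which may be technical. Levels are in TPM, a share of the library's transcripts scaled to a fixed total and corrected for gene length, so levels can be set side by side between genes. DAZL itself stood at 0 and 0.0333 TPM in control cells, against 102 and 101 TPM in oeDAZL cells.

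The genes of a cluster share 1 strand, and their order along the chromosome follows the order of their expression along the body axis. Genes of low paralogue number are expressed early and towards the head, in the hindbrain and neck, and genes of high number later and towards the tail, limb ends and urogenital tract. Silent HOX clusters carry Polycomb marks. Retinoic acid and WNT signalling open them from the low-numbered end, and CDX proteins act on trunk HOX genes. HOX proteins bind DNA with PBX and MEIS proteins as partners. In the GENCODE annotation of hg38, all 39 members were found. HOXA lies on the minus strand of chromosome 7. HOXB spanned chr17:48528526-48728750 (minus strand), HOXC chr12:53938831-54056030 (plus strand) and HOXD chr2:176092721-176190907 (plus strand). Of the members, 33 overlapped another annotated gene, 25 a gene on the opposite strand and 22 another member on the same strand. The strand setting of the counting is not given in the sources used here, so reads of such overlapping genes could be split between them.

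The labelled cell type was compared with its markers. TFAP2C, a specifier of primordial germ cells, was at 44.3 to 53.9 TPM, while SOX17 was at 2.52 to 3.35, PRDM1 at 1.47 to 2.32 and NANOS3 at 0.732 to 1.66 TPM over the 4 libraries. The late germ cell gene DDX4 was listed at 0 in all of them. The amnion and trophoblast gene GABRP was at 1208 to 1408 TPM and the mesoderm gene HAND1 at 958 to 1250 TPM. The libraries are bulk samples, so fewer cells with HOX transcripts and less HOX RNA per cell cannot be told apart. How many reads stand behind a TPM value cannot be read from the table, so precision was judged only from the spread between libraries.

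HOX expression was mainly expression of the HOXB cluster. The 39 genes summed to 148 and 101 TPM in control and to 80.5 and 87.3 TPM in oeDAZL cells. HOXB gave 77.8% to 79.6% of this sum in each library. HOXB2, HOXB3 and HOXB6 alone gave 60.1% to 61.4%. The share of the cluster was therefore nearly the same in all libraries while the sum was lower in both oeDAZL libraries. Members at 1 TPM or more numbered 19 and 16 in control and 13 in each oeDAZL library.

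**Figure D1:**
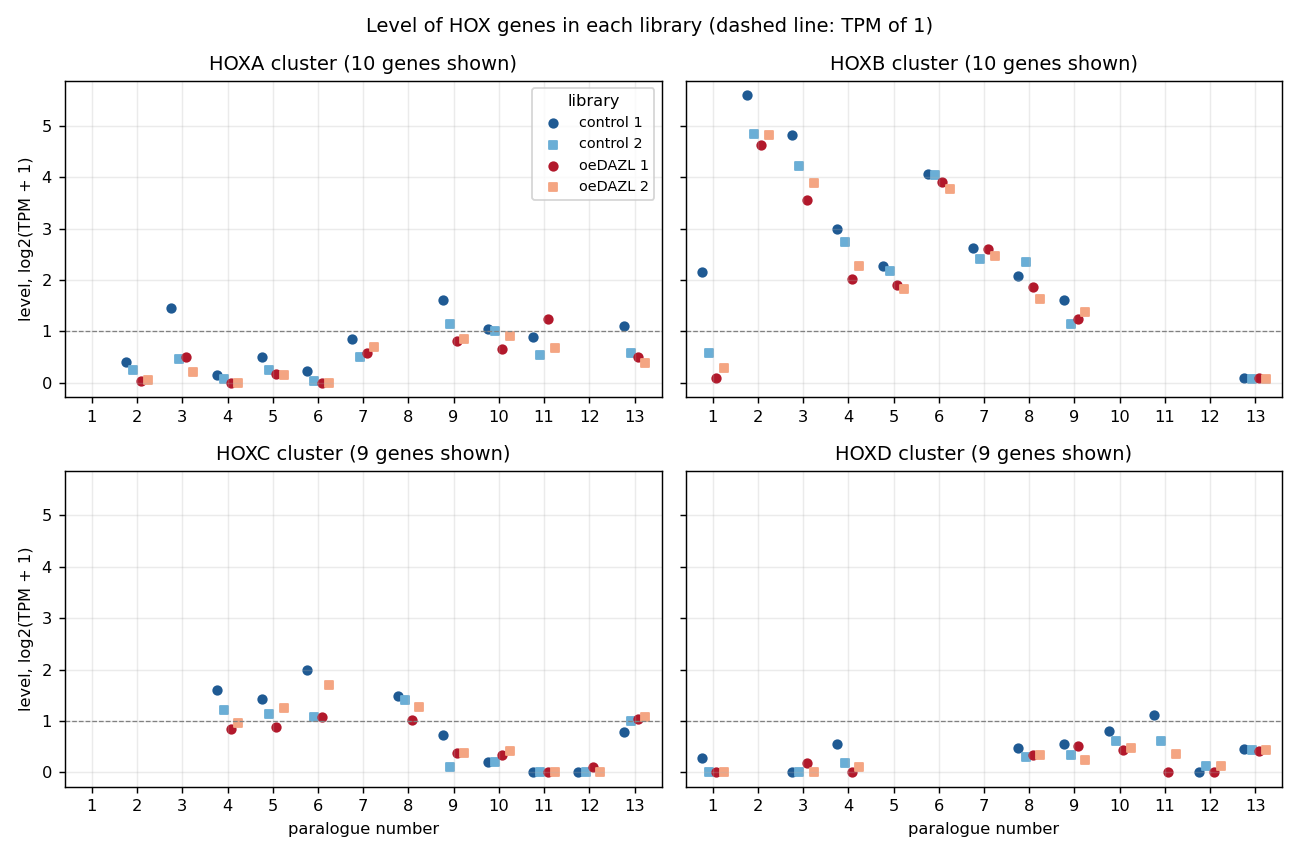
Level of 38 HOX genes in each library as log2(TPM + 1), against its paralogue number, with 1 panel per cluster; circles are replicate 1 and squares replicate 2, blue for control and red for oeDAZL. HOXB2 to HOXB9 lie above the dashed line at a TPM of 1 in all 4 libraries, and the HOXD genes lie below it in every library but for HOXD11 in control replicate 1.

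The control libraries differed from each other in these genes. Control replicate 1 was above control replicate 2 in 33 of the 37 members that were above 0 in a control library. Over all genes tested, with a mean TPM of at least 1, this held for 58.3%. The HOX sums of the oeDAZL libraries lay closer together, at 80.5 and 87.3 TPM against 148 and 101 TPM in control. In 13 of the 39 members oeDAZL replicate 1 was above oeDAZL replicate 2. The main counts and sums, and the values of some genes that moved, are therefore also given without control replicate 1. A gene given only with all libraries may have moved as well.

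Most HOX genes had a lower mean in oeDAZL cells. The mean TPM was lower in 30 of the 38 members that were above 0 in any library (78.9%), against 62.7% of all such genes, and higher in 8. Lower means were seen for 10 of 11 HOXA genes, 8 of 10 HOXB genes, 5 of 8 HOXC genes and 7 of 9 HOXD genes. In 21 members both oeDAZL libraries lay below both control libraries, against 28.3% of all genes. These were 8 HOXA, 7 HOXB, 2 HOXC and 4 HOXD genes. In 2 members, HOXC10 and HOXC13, the oeDAZL values were both above the control values, against 12.2% of all genes. Without control replicate 1 the mean was lower in 24 of 37 members (64.9%) and in 56.4% of all genes, and both oeDAZL libraries were below the remaining control in 21 members and in 44.7% of all genes. The median log2 fold change of the 38 members was -0.21 with no filter on TPM, and that of all genes was -0.05.

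By the study's thresholds, a fold change of at least 2 with an unadjusted P of at most 0.05 in limma, no HOX gene was called different, against 0.689% of the 16687 genes tested. The study applied these thresholds to read counts with DESeq2, another test, so calls made here need not match its calls. The log2(TPM + 1) scale used here also makes the fold changes of low genes smaller. HOX genes tested numbered 15, of which 2 were in HOXA, 9 in HOXB and 4 in HOXC, and every HOXD gene fell under the mean TPM of 1 needed. By P alone, 3 genes were lower in oeDAZL cells, HOXB3 and HOXB4 among them, against 15.2% of all genes tested. None was higher, against 5.02%. The Benjamini-Hochberg adjusted p of limma, over all genes tested, was at least 0.125 for every HOX gene with all 4 libraries. Without control replicate 2, HOXB1, HOXB2 and HOXB3 had an adjusted p of 0.0481, 0.0414 and 0.0456 in limma, beside 673 genes in all under 0.05. With no filter, 4 of 38 members were lower by P alone, HOXA2, HOXB3, HOXB4 and HOXD11, against 9.04% of all genes. Permuting the labels of 4 libraries exactly gives no p smaller than 0.33, so no such test was run on single genes.

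HOX genes of paralogue numbers 1 to 3 pattern the hindbrain. HOXB1, which sets the identity of the fourth hindbrain segment, is regulated by its own protein together with PBX. It showed the largest difference of the tested members and the largest spread. Its level was 3.48 and 0.504 TPM in control and 0.0607 and 0.225 TPM in oeDAZL cells. The oeDAZL libraries lay below both controls, but the controls differed from each other more than control replicate 2 differed from oeDAZL. The log2 fold change was -1.19 ± 0.52 (SE, n = 2 libraries per group), with adjusted p = 0.270 in limma. Without control replicate 1 it was -0.40, and without control replicate 2 it was -1.97. The neural gene PAX6 had the same order of libraries, at 3.83 and 1.14 TPM in control and 0.0967 and 0.558 TPM in oeDAZL cells. SOX1, another neural marker, was low and had that order too, at 0.304 and 0.114 TPM in control and 0 and 0.0285 TPM in oeDAZL cells. Whether neural cells had a part in the level of HOXB1 was not tested.

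The 250 bases before the start of HOXB1 are shown because they hold the letters of a HOX and PBX binding motif, in capitals (RefSeq, GRCh38.p14, chr17:48531012-48531261, minus strand).
HOXB1 upstream: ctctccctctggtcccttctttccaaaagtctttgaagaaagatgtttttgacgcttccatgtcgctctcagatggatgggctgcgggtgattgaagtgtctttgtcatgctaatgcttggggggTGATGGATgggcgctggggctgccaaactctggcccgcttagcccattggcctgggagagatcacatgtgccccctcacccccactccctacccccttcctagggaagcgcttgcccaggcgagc
The motif searched was TGATNNAT on both strands. RefSeq promoter entries (300 bases, up to 50 after the start) numbered 27 over 20 HOX genes. Of these, 3 (11.1%), 1 each of HOXA2, HOXB1 and HOXD11, held it, against 7.40% of 35116 promoter entries. HOXA2, which patterns the second branchial arch, was at 0.331 and 0.182 TPM in control and 0.0312 and 0.0355 TPM in oeDAZL cells. HOXD11, a limb and kidney gene, was at 1.17 and 0.530 TPM in control and 0 and 0.280 TPM in oeDAZL cells. A match of letters is a description of the sequence only.

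HOXB2 was the most abundant HOX gene, at 47.2 and 27.7 TPM in control and 23.6 and 27.2 TPM in oeDAZL cells. Control replicate 2 and oeDAZL replicate 2 were nearly equal. The log2 fold change was -0.50 ± 0.23 (SE), with adjusted p = 0.295, and it was -0.12 without control replicate 1. HOXB3, whose gene region contains HOXB4, HOXB5 and MIR10A (ENSG00000120093.11, chr17:48548870-48604912), was at 27.2 and 17.6 TPM in control and 10.8 and 13.7 TPM in oeDAZL cells. The control mean was 22.4 ± 6.72 and the oeDAZL mean 12.3 ± 2.06 (SD, n = 2 each), with no overlap. The log2 fold change was -0.80 ± 0.21 (SE), with adjusted p = 0.139, and -0.50 without control replicate 1.

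HOXA3, which acts in the thymus and parathyroid, was at 1.74 TPM in control replicate 1 and at 0.155 to 0.411 TPM in the other libraries. HOXD1 was above 0 only in control replicate 1, at 0.210 TPM. HOXD3 was at 0.137 TPM in oeDAZL replicate 1, at 0.00337 TPM in control replicate 2 and at 0 in the other libraries. The 8 genes of numbers 1 to 3 summed in oeDAZL cells to 61.3% of the control mean, with 90.4 and 53.9 TPM in control and 41.1 and 47.4 TPM in oeDAZL cells. The share was 82.0% without control replicate 1. The mean was lower in 7 of the 8 genes with all libraries, beside 62.7% of all genes above 0.

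HOX genes of numbers 4 to 8 pattern the neck and trunk. HOXB4, known for promoting self-renewal of blood stem cells (ENSG00000182742.6, chr17:48575507-48578350), was at 6.92 and 5.67 TPM in control and 3.03 and 3.82 TPM in oeDAZL cells. The control mean was 6.29 ± 0.878 and the oeDAZL mean 3.43 ± 0.562 (SD, n = 2 each). The log2 fold change was -0.72 ± 0.18 (SE), with adjusted p = 0.125, the lowest among HOX genes. Unlike HOXB2, it moved little when a library was left out, from -0.85 to -0.59.

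HOXB5 was at 3.85 and 3.50 TPM in control and 2.76 and 2.52 TPM in oeDAZL cells, without overlap (log2 fold change -0.36 ± 0.17 SE, adjusted p = 0.304). HOXB6, the third most abundant member, was at 15.6 TPM in each control library, against 13.9 and 12.6 TPM in oeDAZL cells (log2 fold change -0.22 ± 0.10 SE, adjusted p = 0.292). Its control libraries were the most alike of the HOXB2 to HOXB9 genes. HOXB7 was at 5.19 and 4.28 TPM in control and 5.05 and 4.54 TPM in oeDAZL cells, so that the groups overlapped (log2 fold change 0.02 ± 0.16 SE, adjusted p = 0.961). HOXB8, which holds blood progenitors undifferentiated, was at 3.24 and 4.13 TPM in control and 2.66 and 2.08 TPM in oeDAZL cells, without overlap (log2 fold change -0.47 ± 0.20 SE, adjusted p = 0.260). HOXB8 was the tested HOXB gene with control replicate 2 above control replicate 1.

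HOXC genes of the same numbers were low. HOXC4 was at 2.04 and 1.32 TPM in control and 0.806 and 0.947 TPM in oeDAZL cells, without overlap (log2 fold change -0.50 ± 0.25 SE, adjusted p = 0.323, and -0.31 without control replicate 1). HOXC8, a gene of motor neurons that serve the arm, was at 1.79 and 1.66 TPM in control and 1.03 and 1.40 TPM in oeDAZL cells, also without overlap (log2 fold change -0.31 ± 0.23 SE, adjusted p = 0.485, and -0.18 without oeDAZL replicate 1). HOXC5 and HOXC6 differed from these. HOXC5 was at 1.70 and 1.20 TPM in control and 0.846 and 1.37 TPM in oeDAZL cells (log2 fold change -0.22 ± 0.26 SE, adjusted p = 0.673, and -0.07 without control replicate 1). HOXC6 was at 2.97 and 1.10 TPM in control and 1.10 and 2.27 TPM in oeDAZL cells (log2 fold change -0.14 ± 0.38 SE, adjusted p = 0.863), and the sign turned to 0.32 without control replicate 1, 0.18 without oeDAZL replicate 1 and 0.042 under quantile normalization. In both genes replicates of a group differed as much as the groups.

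Among the low members of these numbers, HOXA4 and HOXA6 were above 0 in both control libraries and listed at 0 in both oeDAZL libraries. HOXA4 was at 0.112 and 0.0504 TPM and HOXA6 at 0.165 and 0.0255 TPM in control. HOXA5 and HOXD4 also had oeDAZL libraries below both controls, with HOXA5 at 0.414 and 0.194 TPM in control and 0.128 and 0.117 TPM in oeDAZL cells. HOXA7 and HOXD8 overlapped between groups, at 0.239 to 0.793 TPM. The 15 genes of numbers 4 to 8 summed to 45.7 and 39.5 TPM in control and 32.1 and 32.6 TPM in oeDAZL cells, 76.0% of the control mean and 82.0% without control replicate 1. The mean was lower in 14 of them, with HOXB7 as the exception, beside 62.7% of all genes above 0. In 10 of them both oeDAZL values lay below the control values, beside the 28.3% of all genes.

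**Figure D2:**
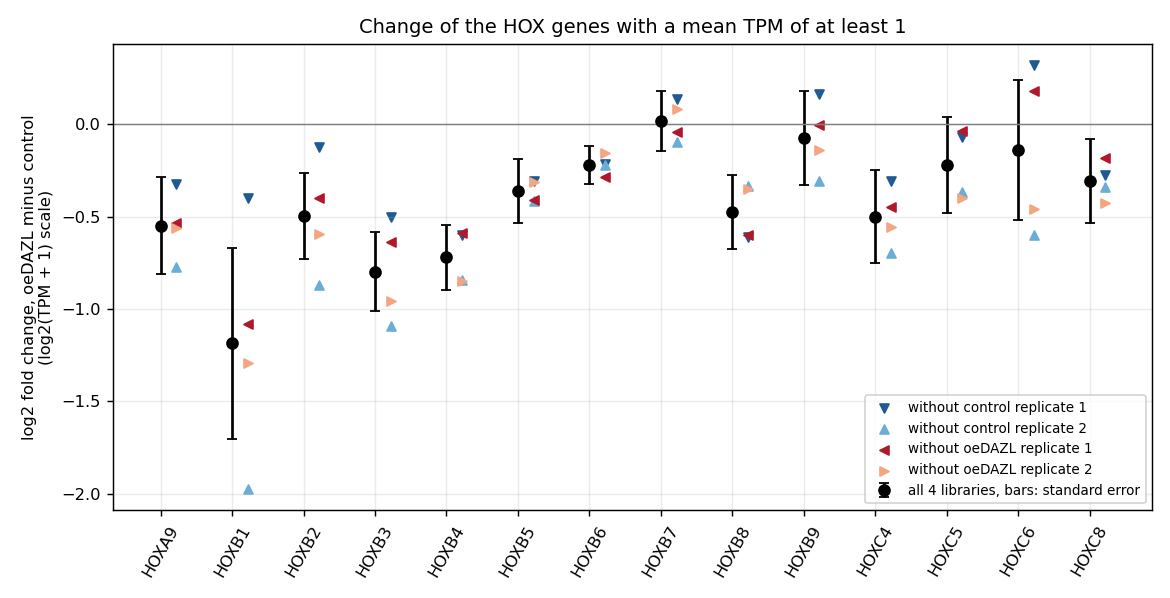
Log2 fold change (oeDAZL minus control, on the log2(TPM + 1) scale) of 14 of the 15 tested HOX genes; black points with standard errors are the fit to all 4 libraries, and coloured triangles the fits with 1 library left out. Without control replicate 1 the estimates of HOXB1, HOXB2 and HOXC6 move most towards or past 0, while those of HOXB4 stay between -0.85 and -0.59.

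HOX genes of numbers 9 to 13 pattern the hind end of the body. HOXA9, a gene of blood progenitors and of leukaemia, was at 2.05 and 1.22 TPM in control and 0.760 and 0.799 TPM in oeDAZL cells. The groups did not overlap, with a log2 fold change of -0.55 ± 0.26 (SE) and adjusted p = 0.302, and -0.32 without control replicate 1. HOXB9 was at 2.06 and 1.21 TPM in control and 1.35 and 1.59 TPM in oeDAZL cells, with overlap (log2 fold change -0.07 ± 0.25 SE, adjusted p = 0.897), and its sign turned to 0.16 without control replicate 1 and 0.11 under quantile normalization.

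Below the mean TPM of 1, members of the same cluster did not all lie on the same side. HOXA13 was at 1.16 and 0.490 TPM in control and 0.416 and 0.311 TPM in oeDAZL cells, and HOXA10 was at 1.07 and 1.01 TPM in control and 0.586 and 0.880 TPM in oeDAZL cells. HOXA11, which lies between them, was at 0.858 and 0.459 TPM in control and 1.35 and 0.597 TPM in oeDAZL cells. HOXC13, a gene of hair and nail, was at 0.730 and 1.01 TPM in control and 1.04 and 1.10 TPM in oeDAZL cells. The gap of HOXC13 between control replicate 2 and oeDAZL replicate 1 was small. HOXC10 was at 0.157 and 0.155 TPM in control and 0.257 and 0.329 TPM in oeDAZL cells.

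HOXD13, the gene of the digits, was at 0.330 to 0.363 TPM and was nearly level over the libraries, though both oeDAZL values were the lower ones. HOXD10 was at 0.749 and 0.526 TPM in control and 0.345 and 0.390 TPM in oeDAZL cells. HOXB13 was at 0.0485 to 0.0714 TPM, HOXC9 at 0.0822 to 0.662 TPM and HOXD9 at 0.180 to 0.468 TPM, each with overlap. HOXC12 and HOXD12 were at 0 in some libraries of both groups and did not pass 0.0850 TPM, and HOXC11 was listed at 0 in all 4 libraries. Of the 15 genes of numbers 9 to 13 above 0, the mean was lower in 9, beside 62.7% of all such genes. Their sum was 11.6 and 7.44 TPM in control and 7.32 and 7.24 TPM in oeDAZL cells. This was 76.7% of the control mean with all libraries and 97.8% without control replicate 1.

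The summed TPM was lower in oeDAZL cells in every cluster, by different amounts. HOXA summed to 18.98 and 11.96 TPM in control and 10.2 and 9.50 TPM in oeDAZL cells. HOXB summed to 115 and 80.2 TPM in control and 63.4 and 68.4 TPM in oeDAZL cells. In these clusters both oeDAZL sums were below both control sums. HOXD, summed to 3.81 and 2.14 TPM in control and 1.52 and 1.63 TPM in oeDAZL cells, did not overlap either. HOXC summed to 10.04 and 6.53 TPM in control and 5.45 and 7.71 TPM in oeDAZL cells and overlapped. The log2 ratio of the group means was -0.65 for HOXA, -0.57 for HOXB, -0.33 for HOXC and -0.92 for HOXD. Without control replicate 1 these ratios were -0.28, -0.28, 0.01 and -0.44. The sum over all members was 67.5% of the control mean with all libraries and 83.2% without control replicate 1.

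**Figure D3:**
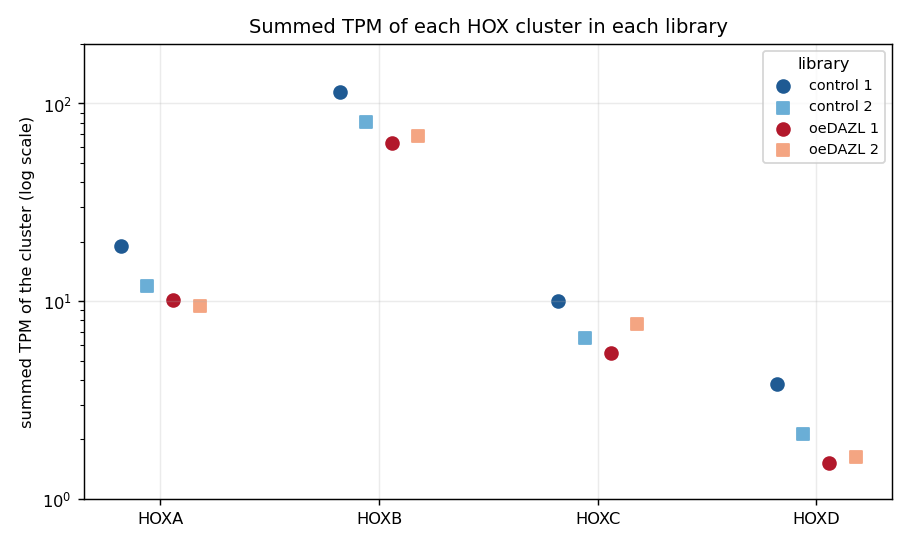
Summed TPM of the genes of each HOX cluster in each library, on a log scale; circles are replicate 1 and squares replicate 2, blue for control and red for oeDAZL. Control replicate 1 is the highest library in all 4 clusters, and only HOXC has an oeDAZL library above a control library.

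The HOX clusters also carry microRNA genes whose seeds, bases 2 to 8, match sites in HOX transcripts. MIR10A lies next to HOXB4, MIR196B in HOXA and the MIR196A genes in HOXB and HOXC. Let-7a is included because the study examines its processing. The study also names miR-10 among the mature microRNAs that rose with DAZL, and reports the miR-10a precursor as enriched with DAZL protein. Mature sequences from RefSeq (GRCh38.p14) follow, with the seed in capitals.
miR-10a-5p: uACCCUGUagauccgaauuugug
miR-196a-5p: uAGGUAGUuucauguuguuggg
miR-196b-5p: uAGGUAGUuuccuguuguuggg
let-7a-5p: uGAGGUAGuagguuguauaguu
The miR-196 pair shares 1 seed. MicroRNA levels were not analysed here, and in the RNA table MIR10A did not pass 0.00484 TPM and the other 5 microRNA genes of the clusters were listed at 0. These values are not levels of the mature microRNAs.

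Sites that pair with the whole seed and have an A opposite base 1 were searched on the sense strand of the longest annotated 3′ UTR of each gene. The miR-10a site ACAGGGTA was in HOXA3 and HOXB3, against 2.29% of 19570 other genes. The miR-196 site ACTACCTA was in 6 of 39 HOX genes, HOXA5, HOXA7, HOXA9, HOXB6, HOXB7 and HOXC8, against 1.72% of other genes. Among genes with a 3′ UTR of 740 to 1426 bases, the middle range of HOX lengths, the miR-196 site was in 4 of 19 HOX genes and 0.718% of other genes, while the miR-10a site was in 0 of 19 against 0.938%. The let-7 site CTACCTCA was in 2 HOX genes, HOXB1 among them, against 4.81% of other genes, and in that length range in 1 of 19 against 2.54%. The miR-196 and let-7 sites have CTACCT in common. Sites of tested members are shown with their surroundings, in capitals, on the strand of the gene. On hg38 the sites are at chr17:48549467-48549474 in HOXB3, chr7:27162692-27162699 in HOXA9, chr17:48595934-48595941 in HOXB6, chr17:48607614-48607621 in HOXB7, chr12:54012245-54012252 for the first of HOXC8 and chr17:48528553-48528560 in HOXB1.
HOXB3, miR-10a: ttgacttaacgtgaaaACAGGGTAta
HOXA9, miR-196: atatgtgcagaaggttACTACCTAgg
HOXB6, miR-196: actggaaggagcacatACTACCTAga
HOXB7, miR-196: tcaacactgaaaaaatACTACCTAta
HOXC8, miR-196: aataaatctttaacatACTACCTAaa
HOXB1, let-7: ctctctgtacctgcaaCTACCTCAtt
Members with the same site differed in their values. Of the tested members with a miR-196 site, the log2 fold change was -0.55 for HOXA9, -0.31 for HOXC8, -0.22 for HOXB6 and 0.02 for HOXB7. HOXB1, with a let-7 site, had -1.19. HOXB4 and HOXB2, with -0.72 and -0.50, held none of these sites in the annotated 3′ UTR searched. A site is a match of letters and was not tested for use in these cells.

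Of 18 long noncoding RNA genes of the clusters, 15 were above 0 in any library. The mean was lower in oeDAZL cells in 13 of these, beside 62.7% of all such genes. The mean TPM reached 1 in 4. All 4 were lower by P alone, beside 15.2% of all genes tested, and 2 were called at the study's thresholds, beside 0.689%. With 1 library left out 3 of the 4 were lower by P alone. HOXA10-AS, antisense to HOXA9 and HOXA10, was at 3.14 and 1.88 TPM in control and 0.217 and 0.167 TPM in oeDAZL cells (log2 fold change -1.54 ± 0.28 SE, adjusted p = 0.0896 in limma). HOXB-AS3, antisense to HOXB3, HOXB4, HOXB5 and HOXB6, was at 2.84 and 3.52 TPM in control and at 1.24 and 0 TPM in oeDAZL cells (log2 fold change -1.48 ± 0.40 SE, adjusted p = 0.144, and -0.89 without oeDAZL replicate 2). Both log2 fold changes lay further below 0 than those of the protein-coding members they overlap, a difference that was not tested.

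HOTAIRM1, an RNA of the HOXA cluster known for its rise with retinoic acid, was at 21.4 and 15.9 TPM in control and 12.5 and 11.97 TPM in oeDAZL cells (log2 fold change -0.56, adjusted p = 0.140, and -0.36 without control replicate 1). Control replicate 1 was the highest library and the oeDAZL libraries were alike. HOXB-AS1, antisense to HOXB2 and HOXB3, was at 14.3 and 8.75 TPM in control and 7.74 and 7.02 TPM in oeDAZL cells (log2 fold change -0.55, adjusted p = 0.240, and -0.22 without control replicate 1, where it did not pass). HOTAIR, in HOXC, was at 0.0901 and 0.0845 TPM in control and listed at 0 in both oeDAZL libraries. Since the strand setting is not known, reads of these RNAs and of the members on the other strand cannot be told apart where they overlap.

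Partners and upstream regulators of HOX genes were taken as lists. Of 9 HOX cofactors, all of which passed the TPM filter, 3 were lower by P alone, beside 15.2% of all genes tested, and none was higher, beside 5.02%, or called, beside 0.689%. MEIS3 was at 59.9 and 52.9 TPM in control and 37.7 and 39.1 TPM in oeDAZL cells (log2 fold change -0.54 ± 0.08 SE, adjusted p = 0.0896). MEIS2 was at 40.2 and 34.3 TPM in control and 26.1 and 26.3 TPM in oeDAZL cells (log2 fold change -0.49 ± 0.10 SE, adjusted p = 0.0962). PBX3 was at 20.1 and 20.2 TPM in control and 16.2 and 17.5 TPM in oeDAZL cells, and did not pass with any 1 library left out. The median of the list was -0.19, beside -0.08 for all genes tested.

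CDX2, a homeodomain factor that acts on trunk HOX genes, was at 22.8 and 20.4 TPM in control and 12.3 and 13.7 TPM in oeDAZL cells (log2 fold change -0.69 ± 0.11 SE, adjusted p = 0.0896). CDX1 lay the other way, at 3.25 and 3.95 TPM in control and 5.14 and 4.91 TPM in oeDAZL cells, and did not pass (adjusted p = 0.255). CDX4 was listed at 0. Of the 6 ParaHox and CDX genes only CDX1 and CDX2 passed the TPM filter. Of 12 genes next to the clusters, 8 passed it and 1 was lower and 1 higher by P alone, beside 15.2% and 5.02% of all genes tested. EVX1, a homeobox gene beside HOXA13, was at 4.26 and 2.80 TPM in control and 1.68 and 1.76 TPM in oeDAZL cells (log2 fold change -0.72 ± 0.23 SE, adjusted p = 0.176, and -0.48 without control replicate 1, where it did not pass). PRAC2, beside HOXB13, was at 0.620 and 0.660 TPM in control and 1.43 and 1.58 TPM in oeDAZL cells (log2 fold change 0.61, adjusted p = 0.228), and did not pass with any 1 library left out. SKAP2, SNX11 and MTX2, which flank clusters and are not homeobox genes, had log2 fold changes of 0.08, 0.03 and 0.02. CALCOCO1, SMUG1 and ATP5MC2, also next to clusters, had -0.17, -0.12 and -0.07, and none of these genes passed by P alone. Without control replicate 1 the signs of SNX11, SMUG1 and MTX2 turned (-0.12, 0.10 and -0.03), while SKAP2, CALCOCO1 and ATP5MC2 kept theirs. The median of the 8 was -0.02, beside -0.08 for all genes tested.

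**Figure D4:**
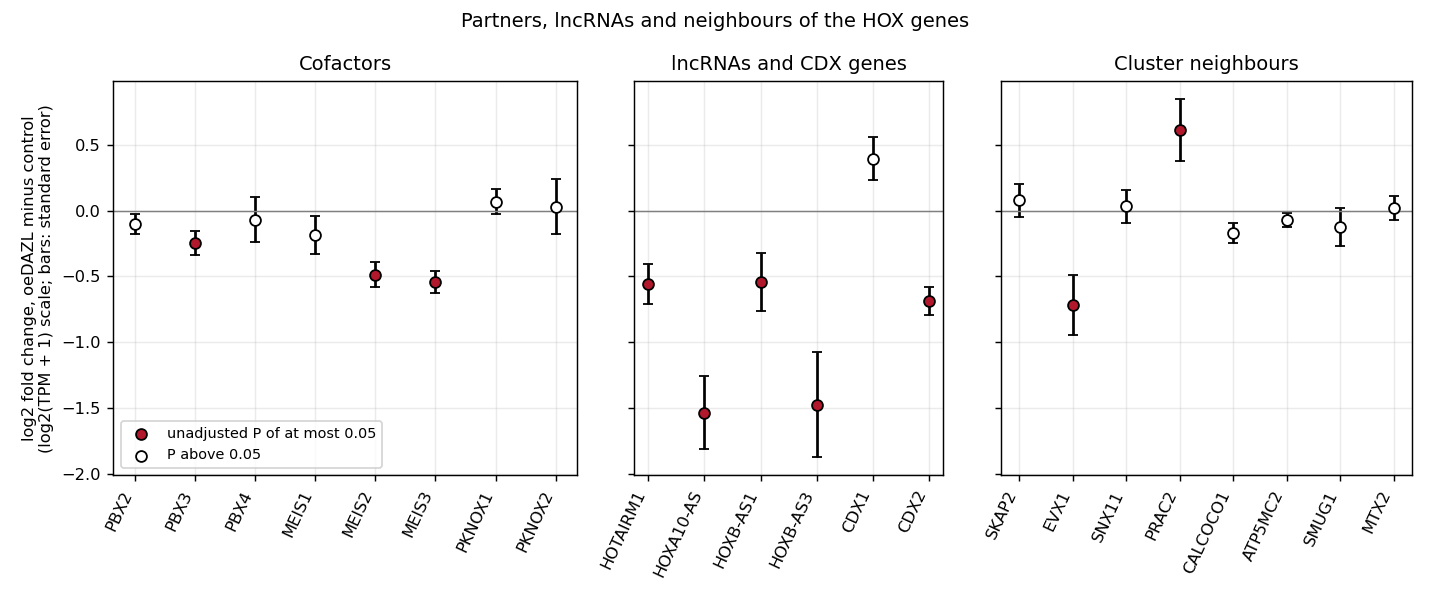
Log2 fold change (oeDAZL minus control, on the log2(TPM + 1) scale) with standard errors for 8 HOX cofactors, cluster lncRNAs with CDX genes, and genes next to the clusters, each where the mean TPM reached 1; filled points have an unadjusted P of at most 0.05. All 4 lncRNAs and CDX2 are below 0, while the genes next to the clusters lie on both sides of 0.

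Chromatin regulators of HOX clusters were taken as lists too. Of 29 Polycomb genes 2 were higher and 3 lower by P alone, beside 5.02% and 15.2% of all genes tested, with a median of -0.08. PCGF2, a subunit of Polycomb complex PRC1, was the called one, beside 0.689% of all genes tested. Its level was 8.81 and 14.1 TPM in control and 21.1 and 31.6 TPM in oeDAZL cells (log2 fold change 1.14 ± 0.26 SE, adjusted p = 0.111 in limma). The log2 fold change was 0.83 without control replicate 1 and 0.86 without oeDAZL replicate 2, each under a fold change of 2. SUZ12 was the other higher one (0.21), and CBX2, CBX6 and CBX7 the lower ones (-0.37, -0.56 and -0.48). The H3K27 methyltransferase EZH2 was at 44.9 to 51.7 TPM with a log2 fold change of -0.13 that did not pass. Of 12 Trithorax and H3K27 demethylase genes, 3 were lower by P alone, KMT2B, KMT2D and KDM6B (-0.32, -0.24 and -0.33), and none was higher, beside the same shares of all genes. With control replicate 1 left out, KMT2B alone of these passed, and CBX2 and CBX7 did not.

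Of 16 retinoid signalling genes, 14 passed the TPM filter, 2 were higher and 4 were lower by P alone, beside 5.02% and 15.2% of all genes tested. Without control replicate 1, 2 were higher and 0 lower, beside 4.67% and 10.3%. CYP26A1, which degrades retinoic acid, was at 33.8 and 37.1 TPM in control and 52.6 and 47.5 TPM in oeDAZL cells (log2 fold change 0.49 ± 0.09 SE, adjusted p = 0.0896), and ALDH1A2, which makes it, was at 2.44 and 4.55 TPM in control and 8.26 and 7.11 TPM in oeDAZL cells (0.99 ± 0.25 SE, adjusted p = 0.128, and 0.64 without control replicate 1). The lower ones were RDH10, RXRB, RARG and RXRA.

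Markers of other cell types also moved with the groups, and their part in the HOX levels was not tested. The 10 primitive streak and mesoderm markers summed to 997 and 1072 TPM in control and 1278 TPM in each oeDAZL library, and HAND1 made up most of each sum. Of these markers 8 had a lower mean in oeDAZL cells, beside 62.7% of all genes above 0. In 5 of them both values lay below both controls, beside 28.3%. Of the 6 tested, TBXT was lower by P alone and HAND1 higher, beside 15.2% and 5.02% of all genes tested. TBXT was at 2.49 and 1.25 TPM in control and 0.319 and 0.546 TPM in oeDAZL cells, and MSGN1 at 1.70 and 0.745 TPM in control and 0 and 0.186 TPM in oeDAZL cells. The 7 amnion and trophoblast markers had sums of 2396 to 2629 TPM. Of these CGA, VTCN1 and ISL1 were lower by P alone, beside 15.2% of all genes tested. CGA was also called at the study's thresholds, with a log2 fold change of -1.18, beside 0.689% of all genes tested. The mean was lower in 5 of the 7, beside 62.7% of all genes above 0. The 7 neural markers had sums of 194 and 243 TPM in control and 267 and 244 TPM in oeDAZL cells. PAX6 was lower by P alone and was also called, with a log2 fold change of -1.30. The mean was lower in 4 of the 7, beside the same 62.7%. Of 6 endoderm markers, with sums of 166 to 272 TPM, 5 had a lower mean, beside 62.7% of all genes above 0. AFP was lower by P alone, at 36.3 and 13.1 TPM in control and 8.91 and 11.6 TPM in oeDAZL cells. It was also called, with a log2 fold change of -1.04. Without control replicate 1 the log2 fold changes of CGA, PAX6 and AFP were -0.92, -0.71 and -0.34. Of 9 germ cell markers only PDPN passed by P alone, and it was higher, beside 5.02% of all genes tested. The mean was lower in 7 of the 8 germ cell markers above 0, beside 62.7% of all such genes. In 4 of them both oeDAZL values lay below both controls, beside 28.3%. Of 6 pluripotency markers only POU5F1 passed, and it was higher, beside the same 5.02%. POU5F1 was at 13.57 and 10.6 TPM in control and 22.4 and 20.4 TPM in oeDAZL cells. In 4 of the 6 both oeDAZL values lay below both controls, and in 2 above them, beside 28.3% and 12.2% of all genes. With control replicate 1 left out, TBXT, PAX6, AFP and PDPN did not pass.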

How the data were processed

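RNA sequencing of 2 control and 2 oeDAZL libraries was analysed. The authors deposited TPM per gene with 1 column per library. According to the submitters' notes and the methods, reads were trimmed with Trim Galore, mapped to hg38 with HISAT2 2.1.0, kept if they mapped uniquely and quantified with StringTie 2.1.4. The annotation release and strand setting are not given in the sources used here. Unique mapping can lower the counts of near-identical sequences. The miRNA libraries were not used here.

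Entries for pseudoautosomal copies on chromosome Y (45) and repeated genes (18) were left out of the 65003 entries. Values were transformed to log2(TPM + 1), so fold changes understate those of low genes. Genes whose mean TPM reached 1 entered a limma fit (version 3.58.1, R 4.3.3) with a trend on mean expression and no covariates, and p-values were adjusted over all 16687 genes by the Benjamini-Hochberg method. A gene was called when its fold change reached 2 and its unadjusted P did not exceed 0.05. These are the study's thresholds, which the study applied to read counts with DESeq2 and not to TPM with limma. TPM is a share of each library with no depth. Positions and 3′ UTRs came from GENCODE 44. The fit was tested on simulated data.

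HOX genes that entered the fit are given by library, the others by value, range and count. Of the other lists, up to 10 genes are named, first those called and then those with the highest mean TPM. Genes named outside this rule, such as the lower members of the lists, were chosen after their values were seen. The members and lists were chosen with earlier results of these data known. Single-gene results of some members and list genes are not reported here. Alternatives were another pseudocount, TPM filters, 2 scalings, exclusion of mitochondrial genes, a replicate block, no trend, and each library left out.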

Additional observations from a re-analysis of the deposited data

How the results depend on the processing

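The low level of most HOX genes and the 2 libraries per group limit every result. No HOX gene was called, but 1, HOXB1, was called with a pseudocount of 0.1, and 0 to 2 were called with 1 library left out (HOXB1 and HOXB3 without control replicate 2). The count lower by P alone was 3, was 7 without the trend and 2 to 6 with 1 library left out, with 6 without control replicate 2. HOXB3 and HOXB4 kept a P of at most 0.05 under every alternative that tested them. The cause of these shifts was not tested.

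Over all genes, 115 were called, 21 higher and 94 lower. The count was 322 with a pseudocount of 0.1, 29 when the filter was raised to a TPM of 5, 5 with an adjusted p under 0.05 and 120 to 322 with 1 library left out (322 without control replicate 2, 175 without oeDAZL replicate 1, 232 without oeDAZL replicate 2). Quantile normalization gave 41 higher and 52 lower. The median of all genes tested was -0.08, and the scalings moved it to -0.003 and 0.006.

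The log2 ratio of sums ran with 1 library left out from -0.95 to -0.28 for HOXA, -0.80 to -0.28 for HOXB, -0.61 to 0.012 for HOXC and -1.28 to -0.44 for HOXD. Quantile normalization gave -0.44, -0.45, -0.05 and -0.57. Signs turned for HOXB7 (-0.10 to 0.13), HOXB9 (-0.31 to 0.16, and 0.11 under quantile normalization) and HOXC6 (-0.60 to 0.32, and 0.042 under quantile normalization). With a replicate block 1 HOX gene, HOXB1, and 125 genes in all were called. The groups share only replicate numbers, and the deviations of same-numbered libraries correlated at -0.104. A crossed pairing, added after seeing the data, called 135 genes and 1 HOX gene, with 6 HOX genes lower by P alone. Direction counts with a library left out were also added then. An adjusted p under 0.05 was reached by 10 genes with all libraries, 4 with the block, 1089 with the crossed pairing (HOX: HOXB3 and HOXB4) and 673 without control replicate 2 (HOX: HOXB1, HOXB2 and HOXB3). Values of the lists and paralogue groups with a library left out were added after seeing the data.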

Other observations

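LINC02381, a long noncoding RNA gene at the HOXC cluster, was chosen after its values were seen. It was at 61.2 and 34.8 TPM in control and 24.6 and 21.96 TPM in oeDAZL cells, above the sum of all HOXC genes in each library. The log2 fold change was -0.96 ± 0.24 (SE), with limma's adjusted p = 0.128, and -0.56 without control replicate 1. As with HOXB2 and HOTAIRM1, control replicate 1 was the highest library and the groups did not overlap.

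EGR2, a hindbrain factor known for acting on HOXB2, was at 0.485 and 0.308 TPM in control and 0.0857 and 0.348 TPM in oeDAZL cells, with overlap.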
